A study of Mus musculus with 39 samples.

Results

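The genes described here are the protamines and transition proteins of the mouse, Tnp1, Tnp2, Prm1, Prm2 and Prm3. They were chosen by name, as 5 of the 21561 genes shared by both deposited tables, and all 5 were found. RNA was sequenced from testis (24 libraries) and from gubernaculum (15 libraries), the cord that draws the testis down, of male C57BL/6J mice, in 13 groups of 3 libraries. The genotypes were wild type (WT), INSL3-KI and INSL3-KO. Testis was taken at postnatal day 8 (P8) and day 23 (P23), and for the first 2 genotypes also at day 40 (P40). Gubernaculum came from the 3 genotypes at P8, and at P23 from the same ones without INSL3-KO. INSL3-KI mice carried the coding sequence of minke whale INSL3 in both copies of the mouse Insl3 locus, with the selection cassette removed by Cre. How the INSL3-KO allele was made, and whether libraries came from pooled animals, is not given in the sources used here. INSL3 is a peptide hormone of Leydig cells that acts on the gubernaculum, and its loss leaves the testes undescended. The comparisons ask how far the late germ cell programme was present in each genotype at each age.

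Late in spermatogenesis the round spermatid elongates and packs its DNA into a compact sperm head. Histones are first exchanged for transition proteins, encoded by Tnp1 and Tnp2, and these are then replaced by the protamines PRM1 and PRM2, of which PRM2 is made as a precursor and trimmed. Prm3 lies in the same gene cluster but encodes an acidic protein that is not part of sperm chromatin. The mRNAs are made in round spermatids, stored, and translated later in elongating spermatids, so that in whole testis they mark germ cells that have passed meiosis.

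In the GRCm38 assembly, Tnp2, Prm3, Prm2 and Prm1 lie in this order within 17904 bases at chr16:10787936-10805839, all on the minus strand, and Tnp1 lies at chr1:73015074-73015909, also on the minus strand. Tnp1 and Tnp2 have 2 exons each, Prm3 has 1 exon, and the first listed transcripts of Prm1 and Prm2 have 2 exons each. An annotated antisense transcript, 1700027A15Rik, overlaps an exon of Tnp1, and Gm46563 and the pseudogene Gm10343 lie on the opposite strand over the span of a longer Prm1 transcript, with no exon over an exon of Prm1. Whether the counting used strand is not stated, so reads from Tnp1 and from its antisense partner cannot be told apart. The 120 bases before each start site are shown because this is where the genes' proximal promoters lie, and because the members moved together across the testis libraries. They are from RefSeq, build GRCm38.p6, minus strand, 5′ to 3′, with matches to either of 2 short motifs in capitals. The windows are chr1:73015900-73016019 for Tnp1, chr16:10788656-10788775 for Tnp2, chr16:10796824-10796943 for Prm1, chr16:10792106-10792225 for Prm2 and chr16:10790915-10791034 for Prm3.
Tnp1: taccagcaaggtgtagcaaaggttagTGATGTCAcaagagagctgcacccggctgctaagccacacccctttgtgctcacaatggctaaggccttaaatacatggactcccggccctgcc
Tnp2: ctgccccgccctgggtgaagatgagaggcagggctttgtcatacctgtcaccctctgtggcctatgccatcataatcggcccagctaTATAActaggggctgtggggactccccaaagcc
Prm1: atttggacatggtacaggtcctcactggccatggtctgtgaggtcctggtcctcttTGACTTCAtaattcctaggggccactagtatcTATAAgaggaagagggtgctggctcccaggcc
Prm2: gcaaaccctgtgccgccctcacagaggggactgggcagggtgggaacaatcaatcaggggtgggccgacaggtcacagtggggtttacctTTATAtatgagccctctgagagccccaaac
Prm3: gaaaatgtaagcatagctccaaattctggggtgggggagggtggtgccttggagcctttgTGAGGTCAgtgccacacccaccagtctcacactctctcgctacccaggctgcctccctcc
The first motif was the cAMP response element, TGACGTCA, the site of CREB and CREM, searched in full and with the fifth base left free (TGACNTCA, which includes the full site), on both strands of the 250 bases before the start. The full site was in none of the 5 windows and in 1.55% of 32851 windows of this length over all genes. The looser form was in 3 of the 5 and in 7.49% of all windows. It read TGATGTCA at -94 to -87 in Tnp1, TGACTTCA at -64 to -57 in Prm1 and TGAGGTCA at -60 to -53 in Prm3. The second motif, TATAA on either strand, was in Tnp2 (-33 to -29), Prm1 (-32 to -28) and Prm2 (-30 to -26), and in 22.8% of all windows. These are matches of letters, and binding was not measured. GENCODE places the starts of Tnp1, of Tnp2 and of the main Prm1 transcript further upstream than RefSeq does, inside the windows shown.

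The depth of the 39 libraries was 29861447 to 45260372 counts, and the counting error is negligible for the members in WT testis at P23 and P40. As a check of the labels, mouse Insl3 had 2722 to 3524 counts in P8 WT testis, 20844 to 25238 at P23 and 20183 to 29799 at P40, against 15 to 33, 52 to 84 and 443 to 511 in INSL3-KI testis of the same ages. It had 0 to 5 counts in INSL3-KO testis at P23, but 613 to 906 in the P8 testis libraries labelled INSL3-KO, where its mean CPM was 24.7% of WT. Some libraries stood apart before any comparison. The P23 WT testis libraries, which are in the same table as the INSL3-KO libraries and not with the other WT ones, carried each member at a mean CPM above that of P40 WT testis. Their age label is therefore in doubt, they are called the libraries labelled P23 WT here, and each P23 difference from WT may be a difference from older testis. INSL3-KI testis replicate 3 at P23 held 264 counts of the 5 members, against 9298 and 11185 in replicates 1 and 2. Its summed Sertoli cell markers were 8771 CPM (counts scaled to equal library totals), against 3957 and 3138. INSL3-KI testis replicate 1 at P40 held 780 counts of the members, against 34 and 49, and its spermatocyte markers summed to 3965 CPM, against 1171 and 1068. INSL3-KI testis replicate 2 at P8 had spermatocyte markers at 3940 CPM, against 2123 and 1810. No 2 replicates agreed within sampling noise, the least different pair of libraries being at 3.19 times the expected chi-square.

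In WT testis the members went from near absence to the top of the transcriptome. At P8 Tnp1 had 0 counts in all 3 WT libraries, Prm1 had 0, 0 and 7, Prm2 had 0, 0 and 6, Prm3 had 0, 0 and 2, and Tnp2 had 3, 5 and 6. At P40 Prm2 had 87648, 93183 and 79361 counts, Tnp2 48622, 61626 and 70423, and Prm1 36071, 35646 and 35292, while Tnp1 had 13299, 11837 and 12573 and Prm3 915, 867 and 753. The groups did not overlap for any member, where 14058 of the 16892 genes tested had an unadjusted p under 0.05 in edgeR. Overlap was not counted over all genes. The members together made up 0.470% to 0.538% of all counts of a WT P40 library. The mean CPM of Tnp2 was 12610 times higher at P40 than at P8 (95% counting interval 7485 to 22970), and that of Tnp1 at least 4103 times higher, taking 3 counts a library as the floor where all libraries were at 0. All P8 counts of the 3 protamine genes fell in WT replicate 3. With it the ratios were 15270 (7220 to 37000) for Prm1, 43390 (19390 to 115000) for Prm2 and 1273 (341 to 10190) for Prm3, and without it they were at least 11510, at least 28030 and at least 274. All 5 were called higher (adjusted p 1.2e-08 to 5.1e-07, edgeR's quasi-likelihood test), where a call needs a change of at least 2-fold and an adjusted p below 0.01. Of all 16892 genes tested, 31.9% were called higher. In whole tissue, fewer cells of a type and less RNA per cell cannot be told apart.

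Per length, on the FPKM scale, Prm2 was the most abundant member in WT P40 testis at 3538 ± 526 FPKM (SD, n = 3) and ranked 2 of 21561 genes. Tnp2 followed at 2716 ± 250 FPKM, rank 3, and Prm1 at 1924 ± 204 FPKM, rank 4. Tnp1 stood at 729 ± 102 FPKM, rank 43, and Prm3 at 52.4 ± 9.87 FPKM, rank 1783. No neighbours in this order overlapped between libraries at P40, Prm2 being at 2938 to 3921 FPKM and Tnp2 at 2439 to 2924. In the libraries labelled P23 WT the order was Tnp2 at 3868 ± 231 FPKM, Prm1 at 3542 ± 289 and Prm2 at 3511 ± 604, which do not differ beyond their spread, then Tnp1 at 1519 ± 160 and Prm3 at 121 ± 28. The plot of FPKM by testis library shows every member at these heights in WT and at or near 0 at P8.

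**Figure D1:**
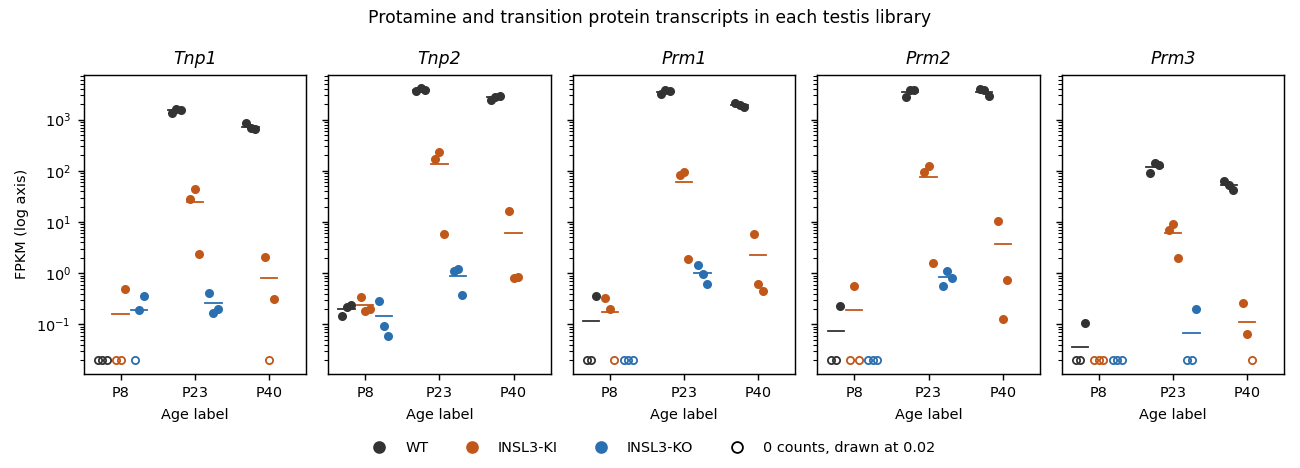
Level of each gene in FPKM (log axis) in every testis library, by age label and genotype, 3 libraries a group; bars are group means and open circles are libraries with 0 counts, drawn at 0.02. WT libraries at P23 and P40 sit far above all INSL3-KI and INSL3-KO libraries, and the INSL3-KI libraries spread most, with replicate 3 low at P23 and replicate 1 high at P40.

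The libraries labelled P23 WT did not stand between P8 and P40. Prm1 had 62911, 72940 and 69947 counts in them, Tnp1 24421, 29708 and 28084, Tnp2 84358, 93820 and 85030, Prm2 72992, 99719 and 97377, and Prm3 1532, 2443 and 2148. Against P8 WT all 5 were called higher (adjusted p 4.5e-09 to 1.9e-07 in edgeR), with 32.8% of 16908 genes called higher. From P23 to P40, Tnp1 (log2 difference -1.15 ± 0.113 SE, adjusted p = 2.7e-05) and Prm3 (-1.29 ± 0.186, adjusted p = 0.00031) fell, where 1.64% of 16438 genes were called lower. Prm1 was at -0.97 and Tnp2 at -0.59 with adjusted p of 3.2e-05 and 1e-04, under the 2-fold limit, and Prm2 at -0.07 (adjusted p = 0.71), its groups overlapping. With Sertoli scaling, which sets libraries equal on the Sertoli cell list, Tnp1 came just short of a 2-fold change and Prm2 stood at 0.08. The summed level of 28 genes of the elongating spermatid's fibrous sheath and dense fibres was 26270 to 26710 CPM in the P23 WT libraries and 19440 to 22370 CPM at P40. These WT groups are in different tables, so that table and age cannot be told apart, and no other WT testis libraries carry the P23 label.

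The balance between members was compared between the WT groups, where 3 against 3 libraries are too few for any ratio to pass its test. Counts of Prm2 were 2.43, 2.61 and 2.25 times those of Prm1 in the P40 WT libraries and 1.16, 1.37 and 1.39 times in those labelled P23. The mean log2 ratio was 1.28 ± 0.11 against 0.38 ± 0.14 (SD, n = 3), a difference of 0.90 with no overlap. The exact two-sided permutation p was 0.10, the smallest that 3 against 3 libraries can give (adjusted p = 0.13 over 4 ratios, a comparison added after the data were seen). A ratio within a library does not depend on how libraries are scaled. The log2 ratio of Tnp2 to Prm1 was 0.74 ± 0.29 at P40 and 0.36 ± 0.07 at P23, and that of Tnp1 to Prm1 -1.51 ± 0.08 and -1.33 ± 0.04, also with an exact permutation p of 0.10 each. For Prm3 over Prm1 the groups overlapped (-5.40 ± 0.13 and -5.09 ± 0.24, exact permutation p = 0.20).

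At P40 the members were almost lost from INSL3-KI testis. Prm1, which encodes a protamine made in its final form, had 111, 11 and 8 counts in the INSL3-KI libraries and 35292 to 36071 in WT. Prm2 had 257, 4 and 17 counts against 79361 to 93183. Tnp1 had 38, 0 and 6 against 11837 to 13299, Tnp2 369, 17 and 18 against 48622 to 70423, and Prm3 5, 2 and 0 against 753 to 915. No member overlapped between genotypes, where 13200 of the 16677 genes tested had an unadjusted p under 0.05 in edgeR. Overlap was not counted over all genes. In each member the highest INSL3-KI library was replicate 1. The members together made up 0.00200% of the counts in that library (95% Wilson interval 0.00187% to 0.00215%) and 9.34e-05% and 0.000136% in the others. Intervals on counts cover counting error only.

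Mean CPM in INSL3-KI was lower by 948 times for Prm2, 863 times for Tnp1, 828 times for Prm1, 446 times for Tnp2 and 363 times for Prm3. On the log2 scale of the fit, the differences were -10.26 ± 1.34 (SE) for Prm1, -10.45 ± 1.83 for Prm2, -9.0 ± 0.564 for Prm3, -10.31 ± 1.35 for Tnp1 and -9.36 ± 1.64 for Tnp2. All 5 were called lower (adjusted p 9e-04, 0.0027, 0.00014, 0.00089 and 0.0027 in edgeR), where 22.1% of the 16677 genes tested were called lower. Their ranks by mean FPKM dropped to 9171 for Tnp2 and 10537 to 16080 for the rest. Both groups are in the same table. Without WT replicate 1 or 2 the calls of Prm2 and Tnp2 were lost (adjusted p of at most 0.011) and 3 remained, and without INSL3-KI replicate 1 the differences widened to between -10.10 (Prm3) and -13.57 (Prm2).

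**Figure D2:**
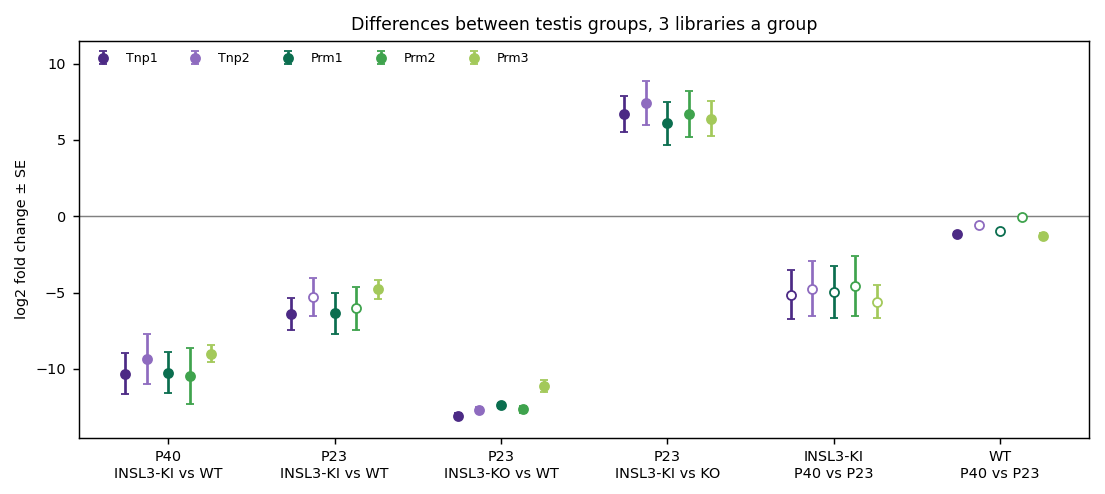
Log2 fold change (vertical axis) of the 5 genes in 6 comparisons of testis groups, 3 libraries a group. Bars are the standard error derived from the F statistic of each test, and filled points were called. Values against WT lie between -9.0 and -10.45 for INSL3-KI at P40, between -4.79 and -6.41 for INSL3-KI at P23 and between -11.10 and -13.05 for INSL3-KO at P23.

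Whether the members fell in equal measure was examined on their ratios to Prm1. The exact permutation test of 3 against 3 libraries cannot go below p = 0.10, so it cannot decide this. In INSL3-KI at P40 the log2 ratio of Prm2 was 0.30 ± 1.43 against 1.28 ± 0.11 in WT (SD, n = 3), overlapping (exact permutation p = 0.20), and that of Tnp2 was 1.15 ± 0.56 against 0.74 ± 0.29 (exact permutation p = 0.40). For Prm3 it was -3.54 ± 1.17 against -5.40 ± 0.13, with no overlap (exact permutation p = 0.10, adjusted p = 0.40 over 4 ratios), but it rests on 0 to 5 counts of Prm3 a library. For Tnp1 it was -2.15 ± 2.14 against -1.51 ± 0.08 (exact permutation p = 0.80), and the difference of -0.64 turned to 0.55 without INSL3-KI replicate 2, where Tnp1 had 0 counts. At this depth only replicate 1 held enough counts for a ratio. It stood at 2.31 for Prm2 over Prm1, within the WT range of 2.25 to 2.61, at 0.345 for Tnp1 (WT 0.332 to 0.369), and at 3.31 for Tnp2 (WT 1.35 to 1.99).

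**Figure D3:**
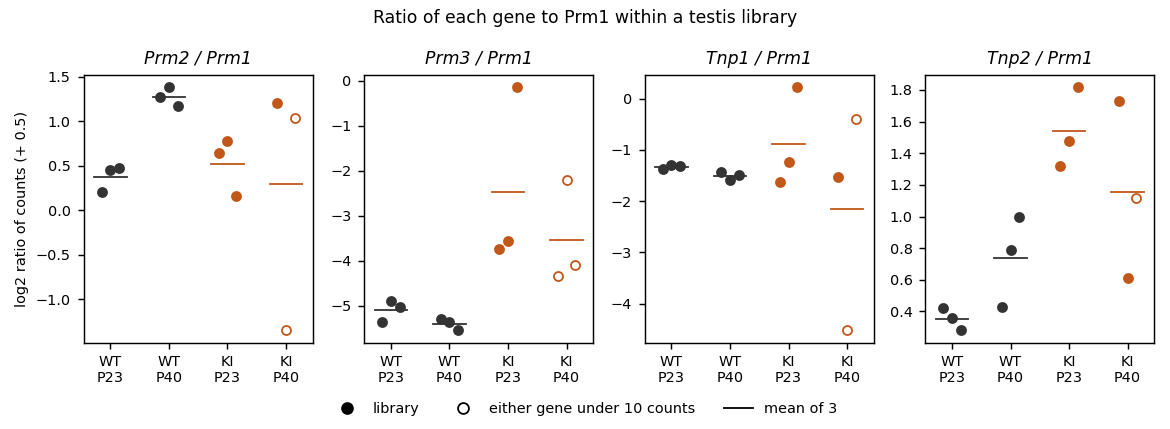
Log2 ratio of counts of each gene to Prm1 within each library, with 0.5 added to both counts, in WT and INSL3-KI testis at P23 and P40; bars are means of 3 and open circles mark libraries where either gene had under 10 counts. Prm2 over Prm1 is higher in the 3 WT P40 libraries (1.17 to 1.39) than in the libraries labelled P23 WT (0.21 to 0.48).

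At P23, INSL3-KI testis held the members at an intermediate level that differed by library. Tnp1 had 548, 788 and 40 counts, Prm1 1702, 1860 and 34, Tnp2 4261, 5195 and 121, Prm2 2660, 3184 and 38, and Prm3 127, 158 and 31. Replicates 1 and 2 lay close together, and replicate 3 was lowest in every member. Every INSL3-KI library was below every library labelled P23 WT, where 9717 of the 16603 genes tested had an unadjusted p under 0.05 in edgeR. Overlap was not counted over all genes. Tnp2 was the most abundant at 136 ± 116 FPKM (SD, n = 3) and ranked 411, followed by Prm2 at 74.2 ± 64.5, Prm1 at 60 ± 50.9, Tnp1 at 24.8 ± 21 and Prm3 at 6.1 ± 3.75 FPKM. Counts of Tnp2 were 2.5, 2.79 and 3.52 times those of Prm1, against 1.22 to 1.34 times in the libraries labelled P23 WT, a difference that was not tested. Mean CPM was lower by 62.2 times for Tnp1, 60 times for Prm1, 48.2 times for Prm2, 28.7 times for Tnp2 and 20.1 times for Prm3.

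Of these, 3 were called lower in edgeR, Prm1 (-6.35 ± 1.33 SE, adjusted p = 0.0092), Prm3 (-4.79 ± 0.598, adjusted p = 0.002) and Tnp1 (-6.41 ± 1.06, adjusted p = 0.0045), where 11.8% of 16603 genes were called lower. Prm2 (-6.03 ± 1.42) and Tnp2 (-5.29 ± 1.23) stood at an adjusted p of 0.013 each. Without INSL3-KI replicate 3 all 5 were called, at -4.36 to -5.87. Without INSL3-KI replicate 1 or any of the WT replicates none was called, and without replicate 2 there were 2 calls. Calls over all genes were not counted with a library left out. DESeq2 called all 5, and it called 3087 of 18176 genes lower. The groups are in different tables, so that table and genotype cannot be told apart, and the WT age label is in doubt. Set against WT P40 testis, which is in the same table but is older, an alternative added after the data were seen, the differences were -3.48 to -5.93 and none was called (adjusted p 0.012 to 0.029 in edgeR, where 3.25% of genes were called lower).

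INSL3-KO testis at P23 held almost none of the members. Prm1 had 27, 21 and 13 counts, Tnp2 24, 30 and 10, Prm2 14, 31 and 22, Tnp1 7, 4 and 4, and Prm3 0, 0 and 4. The differences from the libraries labelled P23 WT, within the second table, were -12.38 ± 0.146 (SE) for Prm1, -12.65 ± 0.214 for Prm2, -11.10 ± 0.393 for Prm3, -13.05 ± 0.161 for Tnp1 and -12.67 ± 0.153 for Tnp2. All 5 were called lower (adjusted p 7.3e-13 to 1.2e-09 in edgeR), as were 33.4% of 16732 genes, and leaving out any library kept all 5 calls. INSL3-KI at P23 was 56.5 times higher than INSL3-KO in mean CPM for Prm1, 80.0 times for Prm3, 86.7 times for Prm2, 88.2 times for Tnp1 and 145 times for Tnp2. All 5 were called higher (log2 differences 6.08 to 7.44, adjusted p 0.0031 to 0.008 in edgeR), where 25.2% of 16379 genes were. INSL3-KI replicate 3 was the nearest, at 34 counts of Prm1 against 27 in the highest INSL3-KO library. The calls went to 0 without INSL3-KI replicate 1 or without INSL3-KO replicate 1 or 2, to 3 without INSL3-KI replicate 2 and to 1 without INSL3-KO replicate 3. Table and genotype cannot be told apart in this comparison.

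The members' levels were also compared between ages within a mutant genotype. From P8 to P23 in INSL3-KI testis, mean CPM was higher by 304 times for Prm1 (95% counting interval 174 to 669) and 488 times for Tnp2 (313 to 862), and at least 30.5 times for Prm3, which had 0 counts at P8. For Prm2 the ratio was 366 (236 to 758), all P8 counts being in replicate 2, and at least 580 without it. For Tnp1 it was 139 (71.5 to 299), all P8 counts being in replicate 3, and at least 129 without it. Of the 5, only Tnp2 was called higher (9.32 ± 1.6 SE, adjusted p = 0.0097 in edgeR, where 5.7% of 16412 genes were called higher). All 5 were called without the P23 replicate 3, and none without any other of the 6 libraries. With Sertoli scaling no member was called, but there edgeR called 0 of all 16412 genes in either direction. From P23 to P40 in INSL3-KI testis the members stood 20.1 (Prm2) to 42.7 times (Prm3) lower in mean CPM, whereas WT stood 1.02 (Prm2) to 2.36 times (Prm3) lower.

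That drop within INSL3-KI was not called for any member (log2 differences -4.57 to -5.59, adjusted p 0.099 to 0.11). In this comparison edgeR called 0% of 16328 genes lower, although 7615 had an unadjusted p under 0.05, and DESeq2 called 874 genes lower, 2 members among them. The groups overlapped for Prm1, Prm2 and Tnp2. Whether the INSL3-KI effect differed between P40 and P23 was tested with an interaction term, which gave -3.91 (Prm1 and Tnp1), -4.07 (Tnp2), -4.23 (Prm3) and -4.42 (Prm2). None was called (adjusted p 0.016 for Prm3 and 0.07 to 0.11 for the rest in edgeR, 1.97% of 17191 genes being called lower). At an unadjusted p under 0.05 there were 7536 genes. DESeq2 called 1 member, and it called 1874 of 17002 genes lower. Of the members, 3 were called without INSL3-KI P23 replicate 3 and 4 without INSL3-KI P40 replicate 1, where calls over all genes were not counted. The interaction term uses the libraries labelled P23 WT.

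Among the libraries labelled INSL3-KO, Prm1 and Prm2 had 0 counts in all P8 testis libraries and 13 to 31 counts at P23, at least 6.63 and 7.08 times higher in mean CPM. Mouse Insl3 goes against the label in the P8 libraries, at 613 to 906 counts against 0 to 5 at P23, so this comparison may not be of age alone. Both were called higher (adjusted p = 0.00035 and 0.00023 in edgeR, with 12% of 15773 genes called higher), and the other 3 had too few counts to be tested. At P8 no member reached the count filter in testis of any genotype, the highest library being at 13 counts of Prm2 in INSL3-KI. Spermatocyte genes were present at this age, 16 of 27 being called higher in INSL3-KI than in WT, where 3.03% of all genes were, and 18 in the libraries labelled INSL3-KO, where 5.44% were. The latter are in another table than P8 WT, so that table and genotype cannot be told apart. For the members no difference between genotypes at P8 was detectable at this depth. The ratio of INSL3-KI to WT in Tnp2, the member with the most even counts, was 1.30 with a 95% counting interval of 0.601 to 2.84.

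The genes around the members were described by lists written by hand. The first holds 39 genes of spermatid chromatin remodelling, such as histone variants and the readers and writers that precede the exchange. At P40 in INSL3-KI, 22.1% of all genes tested were called lower and 25.6% higher, with a median log2 difference of 0.09. Of the 39, 21 were called lower and 1 higher, with a median of -2.19. Among those at 10 CPM or more, the largest changes were in H2al2a, a histone variant of the spermatid that works with the transition proteins (59.4 CPM in WT, 0.0599 in INSL3-KI, -10.42 ± 0.777 SE, adjusted p = 0.00024), and in a histone H2B variant listed as 1700024P04Rik (-9.43 ± 0.583, adjusted p = 0.00014). The smallest was in Rnf8, a ubiquitin ligase used in many tissues (-0.07, adjusted p = 0.77). At P23, 10 of the 39 were called lower for INSL3-KI, where 11.8% of all genes were, and 28 for INSL3-KO, where 33.4% were.

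A second list holds 35 genes of spermatid transcription and of mRNA storage. At P40, 10 were called lower and 3 higher (median -2.04), where 22.1% of all genes were called lower and 25.6% higher, a share of lower calls near the background. Fhl5, which encodes ACT, a coactivator of CREM, went from 140 to 1.04 CPM (-7.66 ± 0.717 SE, adjusted p = 0.00038), and Kif17, a kinesin that carries ACT, from 424 to 6.21 CPM (-6.70 ± 0.305, adjusted p = 5.2e-05). Prkaca, a catalytic subunit of protein kinase A, was at -0.01 (adjusted p = 0.94). At P23, 7 of 35 were called lower for INSL3-KI, where 11.8% of all genes were, and 25 for INSL3-KO, where 33.4% were.

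In lists of other germ cell stages, fewer genes were called lower in INSL3-KI the earlier the stage. Of all genes tested at P40, 22.1% were called lower in INSL3-KI and 25.6% higher. Of 28 genes of the elongating spermatid, 23 were called lower at P40 in INSL3-KI (median -7.80), with Fscn3, an actin bundler, at -10.47, Spata3 at -10.09 and Hdgfl1 at -2.39 (uncalled). Of 25 acrosome and round spermatid genes 18 were (median -6.33), with Spaca7 at -9.73 and the sperm calcium channel subunit Catsper3 at -8.58, and Gopc at -0.31 uncalled. Of 27 spermatocyte genes 5 were (median -1.37), a share of lower calls near the background. In this list the germ cell glycolytic enzyme Pgk2 was at -4.26, Ccna1 at -3.51 (uncalled, adjusted p = 0.019 in edgeR) and Dmc1 at -0.31 (uncalled). Of 20 spermatogonium genes none was called lower and 9 were called higher (median 1.18), such as Zbtb16 at 2.42, while Dmrtb1 was at -2.71 and Sohlh2 at 0.34, neither called. At P23 in INSL3-KO all 28, 24 of 25 and 25 of 27 of the first 3 lists were called lower (medians -10.91, -9.29 and -2.91). Of all genes, 33.4% were. In P23 INSL3-KI testis 23, 12 and 4 were called lower (medians -3.45, -2.79 and -0.43), where 11.8% of all genes were. The 4 spermatocyte genes were again near the background share.

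At P40 in INSL3-KI, markers of Sertoli cells and macrophages were mostly called higher, and those of Leydig cells and skeletal muscle went both ways. At P40 in INSL3-KI, 24 of 25 Sertoli cell genes were called higher (median 2.23), where 25.6% of all genes were, with Trf at 3.82 and Amh at 3.55, and Tjp1 at 0.40 uncalled. Their sum was 8922 to 14050 CPM against 1898 to 2271 in WT, lowest in INSL3-KI replicate 1. Of 10 macrophage genes 9 were called higher, with C1qa at 2.49, Lyz2 at 2.39 and Mrc1 at 1.46. Of 10 Leydig cell genes 4 were called higher and 2 lower, Insl3 among the latter at -6.21, with Lhcgr at 2.15 and Cyp17a1 at -0.28 (uncalled). Skeletal muscle genes, of which 6 of 10 could be tested, had 1 call in each direction, with Des at 1.57 (called) and Ttn at 0.23 (uncalled). At P23 in INSL3-KI, 9 of 25 Sertoli cell genes and 0 of 10 macrophage genes were called higher, and 0 lower. Of all 16603 genes tested, 1462 were called higher. Of 10 Leydig cell genes 5 were called lower and 0 higher at P23, where 11.8% of all genes were called lower. The part of cell number in the members' values was not tested. With Sertoli scaling the median of all genes moved from 0.09 to -1.83 at P40, the genes called lower and higher went from 3690 and 4264 to 10567 and 59, and the members stood at -10.91 to -12.09, all still called lower, while at P23 it moved from 0.08 to -0.48. The P23 differences of INSL3-KI were then -5.12 (Prm3) to -6.65 (Tnp1), larger than before for every member, but with adjusted p of 0.015 to 0.041 in edgeR none was called.

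**Figure D4:**
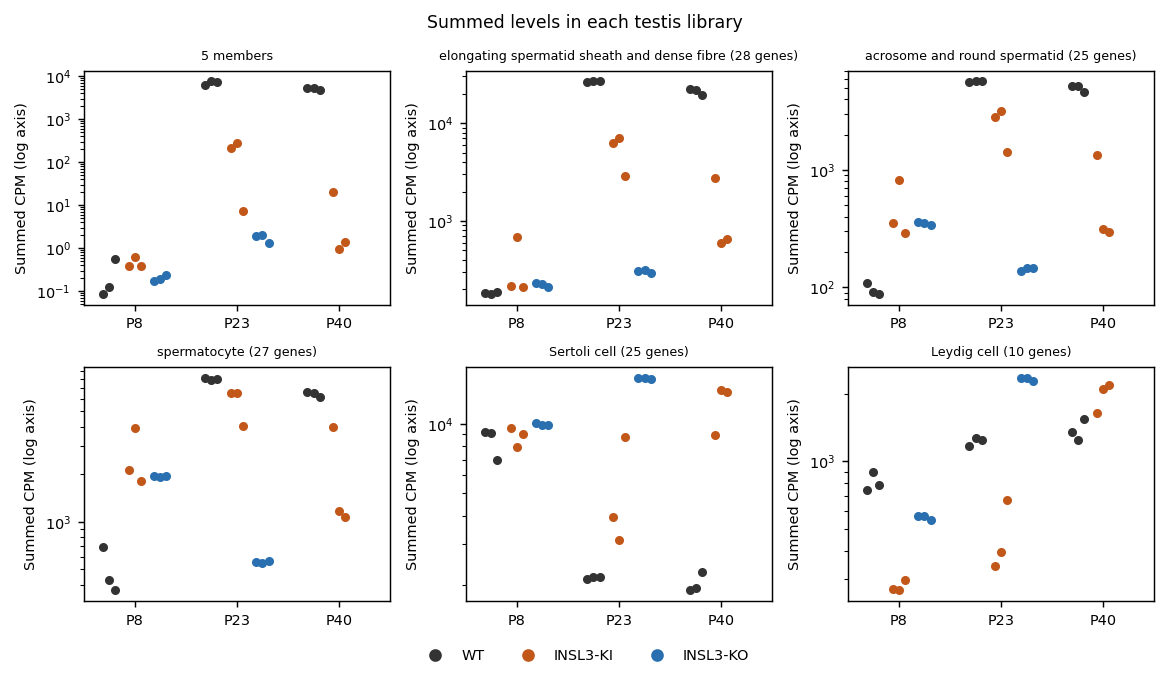
Summed CPM (log axes, own scale in each panel) of the 5 members and of 5 hand-written lists in every testis library, by age label and genotype, 3 libraries a group. At P40 the 2 INSL3-KI libraries with least of the members (0.934 and 1.36 CPM) also have the lowest spermatid and spermatocyte sums and the highest Sertoli cell sums.

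Over the 24 testis libraries the members rose and fell together. Pearson's r of log2(CPM + 1) between pairs of members was 0.977 (Prm3 and Tnp2) to 0.997. These points share libraries and fall into groups, so r is a description with no test. Of 9143 other named genes at 10 CPM or more in WT P40 testis, 171 correlated with the members' mean at over 0.99. The most alike were Cabs1, a calcium-binding protein of spermatids (r = 0.9991, 605 CPM in the libraries labelled P23 WT, 423 in WT P40 and 1.21 in INSL3-KI P40), Prss37 (0.9986), a protease-like protein needed for sperm migration, and Prss52, Wdr64 and Tmigd3 (0.9985 each).

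Reads of the members also appeared in some gubernaculum libraries, a tissue with striated muscle. Skeletal muscle markers summed to 27210 to 27790 CPM in P8 WT gubernaculum, to 1457 to 2386 with INSL3-KI and to 6947 to 7594 with INSL3-KO, and to 50090 to 75000 in P23 WT and 104 to 1667 in P23 INSL3-KI. In P8 WT gubernaculum, Prm2 had 504, 121 and 3 counts, Tnp2 331, 106 and 13, Prm1 247, 38 and 4, Tnp1 64, 31 and 2, and Prm3 13, 2 and 0. Replicate 1 was highest and replicate 3 lowest in each, and replicates 1 and 2 were above every P8 testis library for Tnp1, Tnp2, Prm1 and Prm2. In replicate 1 the levels were 0.545% (Tnp1), 0.597% (Tnp2), 0.622% (Prm2) and 0.743% (Prm1) of the mean in WT P40 testis, with exact 95% Poisson intervals of 0.420% to 0.696%, 0.534% to 0.665%, 0.569% to 0.679% and 0.653% to 0.841%. The 28 elongating spermatid genes stood at a median of 0.692% of their WT P40 testis level in the same library, at 0.213% in replicate 2 and at 0.0124% in replicate 3. In replicate 2 the same 4 members were at 0.108% to 0.25%, and in replicate 3 at 0.00365% to 0.0231%. Summed spermatocyte markers were 105, 85.2 and 67.1 CPM and Leydig cell markers 22.1, 19.0 and 15.4 CPM in replicates 1 to 3, against 368 to 697 and 742 to 896 CPM in P8 WT testis. Where these reads came from was not tested.

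In P8 INSL3-KI gubernaculum no member passed 12 counts, and in the 3 P8 INSL3-KO libraries all 5 had 0 counts, which allows up to 0.0699 CPM. Tnp2 was called lower in INSL3-KI (-6.29 ± 1.32 SE, adjusted p = 0.0043 in edgeR), where 9.7% of 15500 genes were called lower, and Prm2 was not (-5.32 ± 1.56, adjusted p = 0.02). Against INSL3-KO, whose libraries are in the other table, Tnp2 was at least 59.3 times higher in WT and was called lower in INSL3-KO (adjusted p = 0.0083 in edgeR), with 15.2% of 15609 genes called lower. Prm1, Prm3 and Tnp1 had too few counts to be tested in either comparison, and Prm2 too few against INSL3-KO. Both calls turned on single libraries: without WT replicate 1 no member was called in either comparison, without WT replicate 3 there were 4 calls in each, and without any mutant library, or without WT replicate 2 against INSL3-KO, none. How many of all genes were called in these fits was not counted. At P23, WT replicate 1 had 46 counts of Prm2 and 22 of Tnp2, WT replicate 2 had 0 of every member, and INSL3-KI libraries had at most 5, too few for a test.

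**Figure D5:**
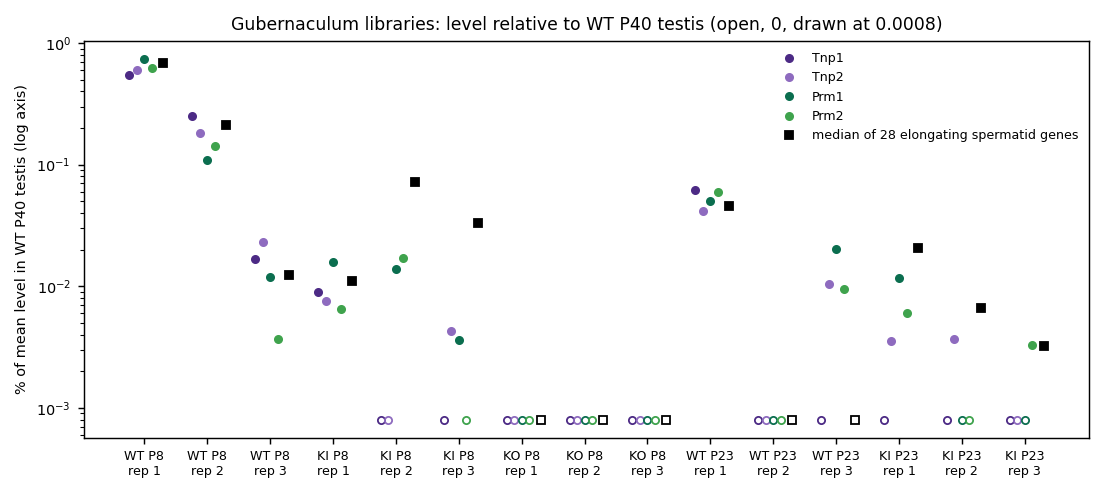
Level of 4 members (circles) and the median of 28 elongating spermatid genes (squares) in each gubernaculum library as a percentage of the mean in WT P40 testis, on a log axis, with open symbols for 0 drawn at 0.0008; Prm3 is left out for its low counts. P8 WT replicates 1 and 2 stand highest, at 0.692% and 0.213% for the elongating spermatid genes.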

How the data were processed

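Paired-end mRNA libraries were mapped by the authors with HISAT2 to GRCm38 (per the labels); the counting program, annotation release and strand setting are not given in the sources used here. The authors deposited raw counts and FPKM values in 2 tables, 27 libraries in the first and 12 (all INSL3-KO and the P23 WT testis) in the second, which were joined on the Ensembl identifier. Counts were tested with edgeR 4.0.16 in R 4.3.3 (TMM, filterByExpr with a minimum count of 10, the compared groups alone, Benjamini-Hochberg over all genes tested). The SE printed with a log2 difference was derived from the test, as the absolute difference divided by the square root of the F statistic. The interaction was fitted over 4 groups. CPM used library totals. DESeq2 1.42.0, limma 3.58.1 on log2(FPKM + 1) and on log2(FPKM + 0.1), other scalings, 1 fit per tissue and each library left out were alternatives. With a library left out, calls were counted for the members only. The code was tested on simulated data. Of each of 10 hand-written lists (229 genes found), the 2 largest and 1 smallest P40 changes at 10 CPM or more were named. Members and lists were chosen with earlier results of these data known. P-values measure the spread between libraries, which may be partly technical.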

Additional observations from a re-analysis of the deposited data

How the results depend on the processing

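Of 775 recomputed values of single members, 646 kept direction and call, 75 lost the call, 48 gained it, 0 reversed and 6, all of Prm2 in WT from P23 to P40, moved across 0 uncalled. The number of members called at P23 in INSL3-KI against WT was 3, and 5 with DESeq2, with all groups in 1 fit and with limma at either pseudocount, 0 with Sertoli scaling, where the differences were no smaller (-5.12 to -6.65), and 0 with WT P40 in place of the libraries labelled P23 WT (added after seeing the data). Genes called lower were 1966 of 16603, against 3087 of 18176 with DESeq2 and 2210 of 17851 in 1 fit. They were 1468 and 1739 of 16603 with limma at pseudocounts of 1 and 0.1. With Sertoli scaling they were 250 of 16603, and with WT P40 540 of 16593. At P23 in INSL3-KI against INSL3-KO the members called were 5, and with limma 1 on log2(FPKM + 1) and 3 with the smaller pseudocount of 0.1. Genes called higher were 4131 of 16379, and with limma 3032 and 3724. In WT from P23 to P40 the members called were 2, and 0 in 1 fit and 1 with Sertoli scaling. Genes called lower were 270 of 16438, against 135 of 17851 in 1 fit and 172 of 16438 with Sertoli scaling. In INSL3-KI from P8 to P23 the members called were 1, and 5 with DESeq2 and in 1 fit, 3 with limma on log2(FPKM + 0.1), 2 with library size alone and 0 with Sertoli scaling. Genes called higher were 935 of 16412, against 3554 of 17659 with DESeq2 and 3810 of 17851 in 1 fit. They were 1797, 1020 and 0 of 16412 with limma, library size alone and Sertoli scaling. In INSL3-KI from P23 to P40 the members called were 0, and 2 with DESeq2 and 5 in 1 fit. Genes called lower were 0 of 16328, against 874 of 17594 with DESeq2 and 2442 of 17851 in 1 fit. In INSL3-KO from P8 to P23 the members called were 2, and 0 in 1 fit and with limma on log2(FPKM + 1). Genes called higher were 1887 of 15773, against 1543 of 17851 in 1 fit and 844 of 15773 with limma. In P8 gubernaculum of INSL3-KI against WT the members called were 1, and 3 with DESeq2, 2 without the count filter and 0 in 1 fit and with limma on log2(FPKM + 1). Genes called lower were 1503 of 15500, against 1788 of 16824 with DESeq2 and 1529 of 19466 without the filter. They were 1198 of 16342 in 1 fit and 882 of 15500 with limma. For INSL3-KO against WT in P8 gubernaculum the members called were 1, and 4 with DESeq2, 3 in 1 fit and 0 with limma on log2(FPKM + 1). Genes called lower were 2374 of 15609, against 2643 of 17132 with DESeq2, 1927 of 16342 in 1 fit and 1345 of 15609 with limma. The interaction had 0 members called, and 1 with DESeq2, where 339 of 17191 and 1874 of 17002 genes were called lower. The cause of these changes was not tested.

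With each library left out, the counts of members called ranged from 3 to 5 at P40, from 0 to 5 at P23 for INSL3-KI against WT and against INSL3-KO and for INSL3-KI from P8 to P23, from 0 to 4 for both P8 gubernaculum comparisons and for the interaction. No share of all genes is at hand for these fits. The difference in the log2 ratio of Tnp1 to Prm1 at P40 was -0.64, between -1.52 and 0.55 with a library left out and 0.41 on FPKM without libraries at 0. Same-numbered libraries correlated at -0.502 to 0.56 and in 0 of 15 comparisons over 0.1 for every pair, so the numbers were not taken to pair samples. With a replicate block the members called were 4 in INSL3-KI from P8 to P23 and 2 in P8 INSL3-KI gubernaculum, and 2 at P23 in INSL3-KI against WT (Prm1 lost, adjusted p = 0.017 in edgeR) and 4 against INSL3-KO (Prm2 lost, adjusted p = 0.019), and the P40 ratios kept their values (exact permutation p of 0.25 to 0.75). With Sertoli scaling the genes called lower and higher went from 1966 and 1462 to 250 and 93 at P23 in INSL3-KI against WT, from 5584 and 5199 to 11676 and 184 in INSL3-KO against WT, from 2131 and 4131 to 87 and 8900 in INSL3-KI against INSL3-KO, from 4704 and 5388 to 1537 and 8886 in WT from P8 to P40 and from 4908 and 5554 to 2115 and 8408 in WT from P8 to P23. At P8 and in gubernaculum, depth limits what can be seen of these genes.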
